A study of Homo sapiens with 6 samples.

Results

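The genes described here are the IFIT family (IFIT1, IFIT2, IFIT3 and IFIT5), the IFITM family (IFITM1, IFITM2 and IFITM3) and BST2. They were taken by symbol from families picked with earlier results of these data known, and are 8 of the 57820 genes in the count table. All 8 passed the filter on low counts, which left 15605 genes in the test. RNA was sequenced from M14, a human melanoma cell line, in which every library came from cells that expressed a doxycycline-inducible STAG2 shRNA under puromycin selection. The cells were cultured for 5 days with doxycycline (STAG2-KD, here KD) or without it (WT, labelled wild type), with 3 libraries per condition. The WT cells therefore carried the same shRNA construct and differed from the KD cells in doxycycline as well as in STAG2. No cells given doxycycline without the STAG2 shRNA were among the samples, and the methods name a single STAG2 shRNA for this line. STAG2 is a subunit of cohesin, the ring complex that forms and holds DNA loops. The comparison of KD with WT asks how these genes responded when STAG2 was lowered.

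IFIT, IFITM and BST2 are interferon-stimulated genes. Interferon made in response to virus activates the transcription factor complex ISGF3, of which IRF9 is a subunit and which binds the interferon-stimulated response element (ISRE) in the promoters of such genes. IFIT proteins are cytoplasmic proteins built of tetratricopeptide repeats that bind foreign RNA or one another and hold back its translation. IFITM proteins are small membrane proteins that hinder the fusion of enveloped viruses with the membranes of the cell. BST2, also called tetherin, anchors budding enveloped virions to the surface of the cell that made them.

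STAG2, the gene targeted by the shRNA, was lower in KD. Its level was 66.5, 34.8 and 28.8 CPM (counts divided by the library total, after TMM scaling between libraries) in WT replicates 1 to 3, and 16.0, 7.31 and 6.70 CPM in KD replicates 1 to 3. All KD libraries lay below all WT libraries. The log2 fold change was −2.12 (SE 0.43, adjusted p = 0.0342 by the edgeR quasi-likelihood test, Benjamini-Hochberg method across the 15605 genes). This call was lost, with adjusted p from 0.0652 to 0.168, when WT replicate 2, WT replicate 3, KD replicate 2 or KD replicate 3 was left out.

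Totals per library ran from 24895998 to 35181733 expected counts, so that 3 counts corresponded to between 0.0853 and 0.121 CPM. Such a floor covers counting error only. WT replicate 1 stood apart, with 5.07% of its counts from mitochondrial genes against 2.12% to 2.94% in the other libraries, and with the highest level of PMEL, a melanosome gene, at 3370 CPM against 662 and 684 CPM in the other WT libraries. KD replicate 1 had the highest PMEL of the KD libraries, at 1254 CPM. For this reason the changes below are also given without replicate 1 of both conditions, an alternative chosen after the data had been seen. Markers of the melanocyte lineage were present in every library, and their summed level was 2121 to 6631 CPM in WT and 1441 to 2867 CPM in KD. Of 11 leukocyte markers, CD3D, CD3E, MS4A1 and HBB were at 0 in every library and PTPRC was at 0 in every KD library, while CD68, a lysosomal protein used as a macrophage marker, was higher in KD (log2 fold change 1.59, adjusted p = 0.00855). Summed, the leukocyte list ran from 27.8 to 41.7 CPM in WT and from 92.3 to 127.5 CPM in KD. Most of that sum was CD68 itself, at 25.3 to 39.0 CPM in WT and 88.4 to 125.3 CPM in KD. No other marker of the list was above 2.18 CPM in any library. The part of that list in the results below was not tested. The study describes its replicates as biologically independent samples, and the labels do not say whether they came from separate cultures. In bulk RNA, more cells that express a gene and more of its RNA per cell cannot be told apart.

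Upon STAG2 KD, 7 of the 8 genes were higher and none was lower. IFITM2 was the gene that was not called. Across all tested genes, 1.75% were called higher in KD and 0.839% were called lower. For the 8 genes the median log2 fold change was 3.34, against −0.03 over all tested genes. In these same 7 genes every KD library lay above every WT library, which was so for 11.8% of all tested genes. Together the 8 genes took 0.0262%, 0.0364% and 0.0378% of the counts in the WT libraries and 0.244%, 0.167% and 0.238% in the KD libraries. With 3 libraries against 3, a two-sided exact permutation test cannot give a p below 0.1, and each of the 7 genes reached that value.

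**Figure D1:**
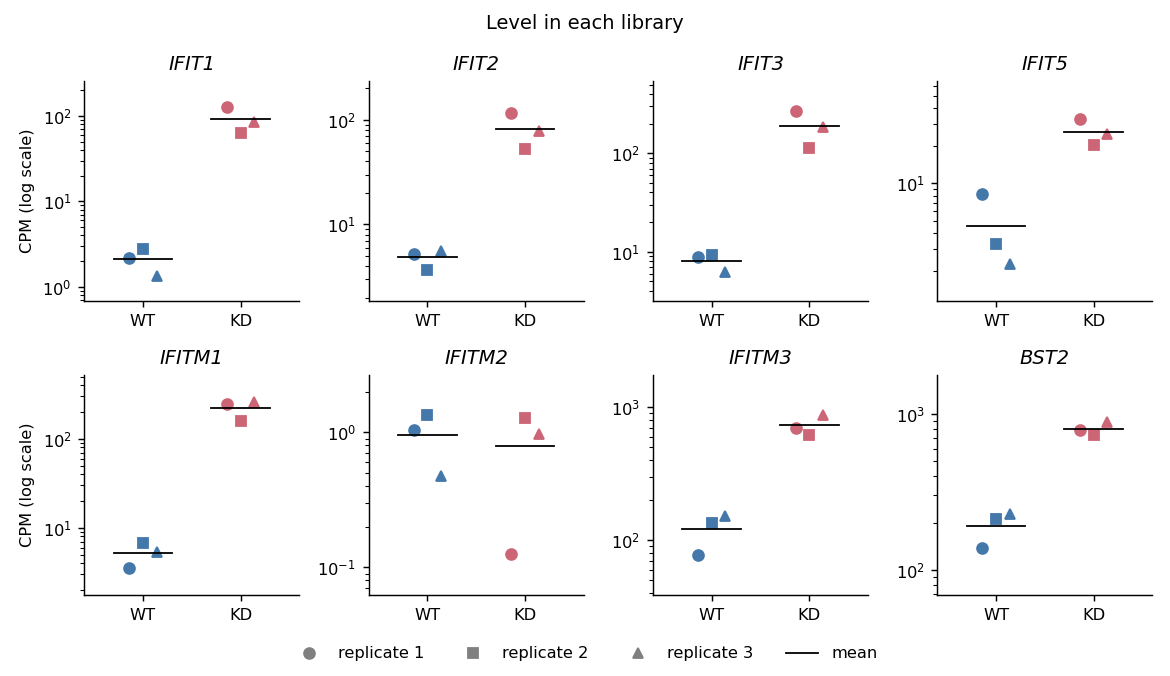
Level of each gene in each library, in CPM on a log scale with a separate range per gene; points are libraries, marked by replicate number, and lines are the arithmetic means of the 3 libraries. In all genes but IFITM2 the KD libraries lie above the WT libraries.

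IFIT1 binds RNA whose cap lacks the ribose methylation that marks the cell's own messages. Its level was 2.16, 2.79 and 1.35 CPM in WT replicates 1 to 3 and 128, 63.6 and 84.2 CPM in KD replicates 1 to 3. The lowest KD library was 22.9 times the highest WT library. The mean rose from 2.10 ± 0.72 to 92.0 ± 32.9 CPM (SD, n = 3 each), a log2 fold change of 5.45 (SE 0.38, adjusted p = 7.62e-05), and 5.15 without replicate 1 of both conditions (adjusted p = 0.00063). In expected counts this was 37 to 96 counts in WT and 1881 to 4115 in KD.

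IFIT2 and IFIT3 associate with IFIT1 and with each other. IFIT2 was at 5.22, 3.68 and 5.61 CPM in WT and at 117, 52.1 and 77.8 CPM in KD. Its log2 fold change was 4.09 (SE 0.35, adjusted p = 0.000279), or 3.82 without replicate 1 of both conditions. IFIT3 was at 8.91, 9.22 and 6.26 CPM in WT and at 272, 114 and 186 CPM in KD. For IFIT3 the log2 fold change was 4.55 (SE 0.35, adjusted p = 0.000158), or 4.27 without replicate 1 of both conditions. KD replicate 1 was the highest and KD replicate 2 the lowest for IFIT1, IFIT2 and IFIT3 alike, and also for IFIT5 below. The conditions did not overlap for any of these genes.

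IFIT5, which binds uncapped RNA on its own, had the smallest fitted change of the family and the largest SE. WT replicates 1 to 3 had 8.23, 3.28 and 2.29 CPM. The KD libraries had 32.7, 20.1 and 24.6 CPM, so that the lowest KD library was 2.44 times the highest WT library. The log2 fold change was 2.49 (SE 0.47, adjusted p = 0.0272). WT replicate 1 was the highest of the WT libraries, and without it the log2 fold change was 3.20 (adjusted p = 0.00131). Leaving out any 1 of the other 5 libraries ended the call, with log2 fold changes from 2.16 to 2.63 and adjusted p from 0.0796 to 0.114. Without replicate 1 of both conditions the change was 3.00 on the log2 scale (adjusted p = 0.00278).

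The 4 IFIT genes lie side by side on the plus strand of chromosome 10 (GRCh37, GENCODE): IFIT2 at 91043451-91069028, IFIT3 at 91087064-91137230, IFIT1 at 91152303-91166244 and IFIT5 at 91174325-91181362. Each has 2 exons in its canonical transcript. Their promoters are shown because ISRE is the element through which interferon acts on them. The sequences are from the RefSeq promoter table (GRCh38.p14), which held IFIT1, IFIT3 (2 starts), IFIT5, IFITM1, IFITM3 and BST2, and each was found at a single place in GRCh37, whose coordinates are given. IFIT2 and IFITM2 were not in that table. Sequences run 5′ to 3′ on the strand of the gene, and capitals mark matches to the ISRE letters GAAANNGAAA, or TTTCNNTTTC on the other strand. The first line holds bases 250 to 78 before the IFIT1 start (chr10:91152130-91152302), the second bases 250 to 57 before the upstream IFIT3 start (chr10:91087504-91087697), and the next 30-base windows around matches at the downstream IFIT3 start (chr10:91092182-91092211 and chr10:91092225-91092254) and at the IFIT5 start (chr10:91174270-91174299 and chr10:91174311-91174340). All are on the plus strand, and capitals at the edge of a window are the end of a neighbouring match.
IFIT1: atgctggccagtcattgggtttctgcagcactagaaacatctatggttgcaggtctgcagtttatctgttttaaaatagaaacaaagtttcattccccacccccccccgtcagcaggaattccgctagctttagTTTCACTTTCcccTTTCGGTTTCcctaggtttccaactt
IFIT3, upstream start: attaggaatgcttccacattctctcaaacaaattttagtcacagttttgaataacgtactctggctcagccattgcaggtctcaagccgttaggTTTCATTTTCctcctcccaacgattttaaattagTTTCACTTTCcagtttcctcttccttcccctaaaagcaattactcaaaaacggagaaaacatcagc
IFIT3, downstream start, farther match: acagattctgTTTCAGTTTCccctcaagag
IFIT3, downstream start, nearer match: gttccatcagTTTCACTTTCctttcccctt
IFIT5, farthest match: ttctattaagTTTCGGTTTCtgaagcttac
IFIT5, nearest match: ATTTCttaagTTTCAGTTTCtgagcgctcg
In IFIT1 the matches began 116 and 103 bases before the start, with 3 bases between them, and in IFIT3 156 and 122 bases before the upstream start and 94 and 51 bases before the downstream one. IFIT5 held 3 matches, beginning 45, 19 and 4 bases before its start.

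IFITM1, found mainly at the cell surface, had the largest change of its family. It was at 3.50, 6.67 and 5.32 CPM in WT and at 248, 157 and 262 CPM in KD. The lowest KD library was 23.6 times the highest WT library. The log2 fold change was 5.42 (SE 0.33, adjusted p = 4.97e-05), and 5.13 without replicate 1 of both conditions (adjusted p = 0.000285).

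IFITM3, which sits in endosomes and lysosomes, had a far higher level in WT, also per kilobase of transcript. WT replicates 1 to 3 had 77.2, 134 and 153 CPM, and KD replicates 1 to 3 had 697, 619 and 878 CPM. The conditions did not overlap, and WT replicate 1 was the lowest library. Its log2 fold change was 2.59 (SE 0.29, adjusted p = 0.00145), or 2.39 without replicate 1 of both conditions (adjusted p = 0.00128).

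IFITM2, the closest relative of IFITM3 and also endosomal, had few counts in both conditions, and in KD replicate 1 it was near the 3-count floor. WT replicates 1 to 3 held 28.3, 45.6 and 12.9 expected counts (1.04, 1.33 and 0.473 CPM), and KD replicates 1 to 3 held 3.5, 38.4 and 31.8 (0.125, 1.29 and 0.979 CPM). The conditions overlapped. The log2 fold change was −0.26 (SE 1.20, adjusted p = 0.963), an error larger than that of the other 7 genes, and its sign turned to 0.33 without replicate 1 of both conditions. With that error a small change in IFITM2 could not be detected, and one as large as that of IFITM3 (log2 fold change 2.59) could also have been missed.

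The IFITM genes are close relatives, and where a read matches more than 1 gene, RSEM splits it among those genes. Of the 50-base stretches of the canonical transcript, 15.8% in IFITM1, 10.0% in IFITM2 and 20.8% in IFITM3 also occurred in transcripts of other genes of the table. IFITM1 and IFITM3 shared 98 of them, IFITM2 and IFITM3 shared 51, and IFITM1 and IFITM2 shared 50. Expected counts of all 3 genes were fractional in every library. IFITM2 also shared 47 stretches with the pseudogene IFITM3P1, and IFITM3 shared 18 with IFITM3P2. The sum of the 3 genes does not depend on how reads were divided among them, but it does on any division with such pseudogenes, and it rose from 81.7, 142 and 159 CPM in WT to 945, 777 and 1141 CPM in KD. The log2 fold change of the sum was 2.90 (SE 0.29, adjusted p = 0.000898), and 2.68 without replicate 1 of both conditions. The counts of IFIT1, IFIT2, IFIT5 and BST2 were whole in every library. IFIT1 shared 1.11% of its stretches, mostly with IFIT1B, IFIT3 shared 2.73%, and IFIT2, IFIT5 and BST2 shared none. The 4 IFIT genes summed rose from 24.5, 18.97 and 15.5 CPM to 550, 250 and 372 CPM, a log2 fold change of 4.31 (SE 0.34, adjusted p = 0.000182), or 4.18 without replicate 1 of both conditions.

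The IFITM genes lie near the end of the short arm of chromosome 11, with IFITM2 at 303655-309397 and IFITM1 at 310041-315272 on the plus strand and IFITM3 at 319676-329475 on the minus strand. Each has 2 exons. Upstream sequence is shown for IFITM3, where the window holds no annotated UTR (bases 250 to 1 before the start, chr11:320861-321110, minus strand), and as 30-base windows around the matches of IFITM1 (chr11:313990-314019 and chr11:314024-314053, plus strand).
IFITM3: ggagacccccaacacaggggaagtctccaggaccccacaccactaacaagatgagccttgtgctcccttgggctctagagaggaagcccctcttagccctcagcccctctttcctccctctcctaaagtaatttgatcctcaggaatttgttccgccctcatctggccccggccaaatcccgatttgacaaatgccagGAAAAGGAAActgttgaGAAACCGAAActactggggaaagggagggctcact
IFITM1, farther match: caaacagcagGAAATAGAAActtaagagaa
IFITM1, nearer match: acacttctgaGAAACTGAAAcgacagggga
The ISRE matches began 52 and 35 bases before the start of IFITM3 and 40 and 6 bases before that of IFITM1.

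BST2 was at 137, 211 and 227 CPM in WT and at 790, 731 and 896 CPM in KD. The KD libraries differed little among themselves, and the lowest of them was 3.23 times the highest WT library. The mean rose from 191 ± 47.8 to 806 ± 83.8 CPM (SD, n = 3 each), a log2 fold change of 2.07 (SE 0.24, adjusted p = 0.00183), or 1.90 without replicate 1 of both conditions (adjusted p = 0.00133). It was the smallest of the 7 changes. BST2 has 5 exons on the minus strand of chromosome 19 (17513748-17516439). Its 2 ISRE matches, 130 and 124 bases before the start, overlap by 4 bases, which gives 3 GAAA runs in a row (chr19:17516550-17516579, minus strand).
BST2: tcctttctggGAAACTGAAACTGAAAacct
BST2 also held the GAS letters TTCNNNGAA, the element of genes that respond to interferon gamma, 136 and 58 bases before its start, the farther one overlapping an ISRE match. IFITM1 held them 12 bases before its start, overlapping an ISRE match, and the other windows held none.

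**Figure D2:**
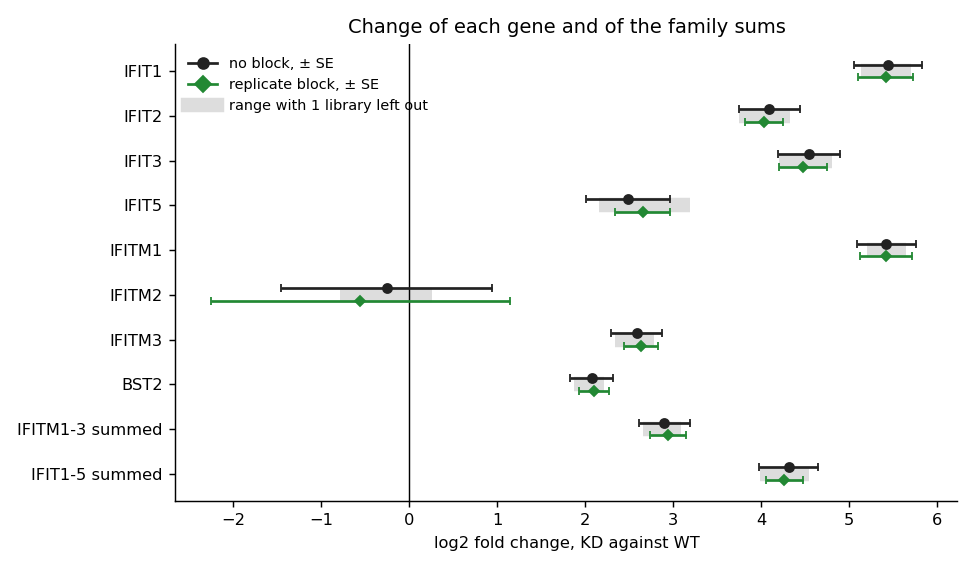
Log2 fold change, KD against WT, of each gene and of the 2 family sums, with bars of ± 1 SE from the test without a replicate block (circles) and with it (diamonds), and in grey the range with 1 library left out. All but IFITM2 lie above 2 on the axis in both tests.

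With the replicate number as a block, the same 7 genes were called higher, IFIT5 with an adjusted p of 0.000564, and IFITM2 was again not called (log2 fold change −0.55, SE 1.70, adjusted p = 0.896). That test called 5.1% of all genes higher and 4.42% lower.

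The 8 genes stood at different places among all tested genes. Ranked by log2 fold change from the highest of 15605, IFIT1 was 53rd, IFITM1 55th, IFIT3 76th, IFIT2 93rd, IFITM3 230th, IFIT5 252nd, BST2 354th and IFITM2 10241st.

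**Figure D3:**
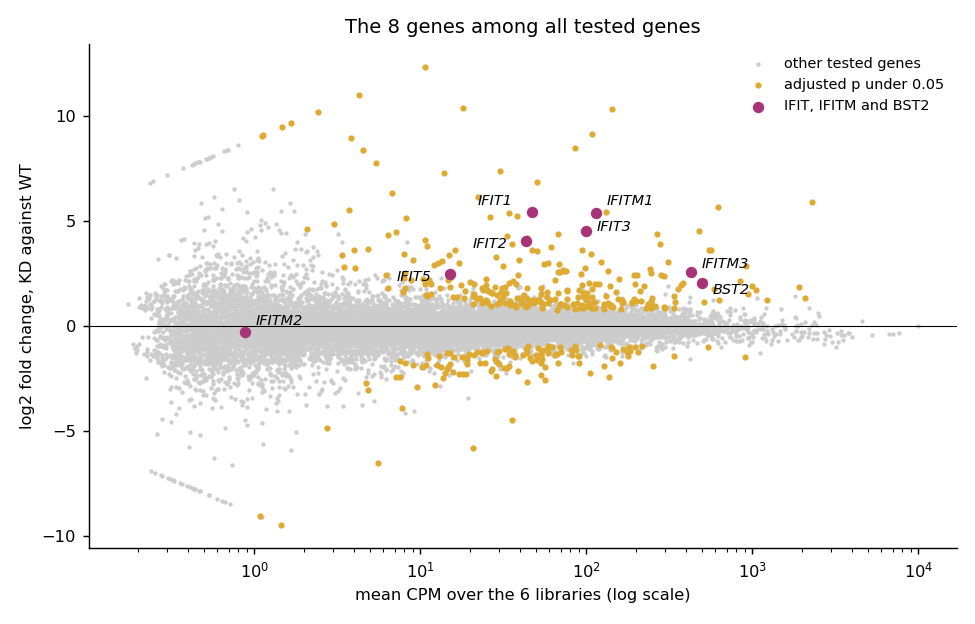
Log2 fold change, KD against WT, against the mean CPM of the 6 libraries (log scale) for the 15605 tested genes, with the 404 genes at an adjusted p under 0.05 in yellow and the 8 genes named. IFITM2 lies among genes of low level and wide spread, and the other named genes lie above the bulk of genes at their level.

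Per kilobase of canonical transcript, IFITM3 and BST2 were the most abundant of the 8 genes in WT and in KD. In WT the mean level was 199 ± 64.8 CPM per kb for IFITM3 and 191 ± 47.7 for BST2, and their ranges overlapped. IFITM1 followed at 7.73 ± 2.38 and IFIT3 at 3.40 ± 0.68, each apart from its neighbours in the order. The other genes lay between 0.488 for IFIT1 and 1.43 CPM per kb for IFIT2, and neighbours in their order (IFIT2, IFIT5, IFITM2 and IFIT1) overlapped. In KD the order was IFITM3 (1197 ± 217 CPM per kb), BST2 (805 ± 83.7), IFITM1 (333 ± 85.2), IFIT3 (79.7 ± 33.1), IFIT2 (24.3 ± 9.68), IFIT1 (21.4 ± 7.65), IFIT5 (6.40 ± 1.59) and IFITM2 (0.792 ± 0.60). Only IFIT2 and IFIT1 overlapped there. IFIT1 was last in WT and 6th in KD. The lengths are those of the canonical transcript and not of the isoforms present, so small differences in this order depend on them.

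The make-up of each family was compared as shares of its counts. IFIT1 made up 8.81%, 14.7% and 8.69% of the IFIT counts in WT and 23.3%, 25.5% and 22.6% in KD. IFIT5 made up 33.6%, 17.3% and 14.8% in WT and 5.95%, 8.04% and 6.61% in KD, so that IFIT1 and IFIT5 did not overlap between conditions and lay on opposite sides. The share of IFIT2 overlapped between conditions (19.4% to 36.2% in WT, 20.9% to 21.3% in KD), as did that of IFIT3 (36.3% to 48.6%, and 45.6% to 49.9%). IFITM1 made up 4.27%, 4.70% and 3.34% of the IFITM counts in WT and 26.2%, 20.2% and 23.0% in KD. IFITM3 held 94.4% to 96.4% of the IFITM counts in WT and 73.8% to 79.6% in KD. IFITM2 made up at most 1.29% in any library. These shares are not adjusted for length.

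As log2 ratios within a library, each other member was lower relative to IFIT1 or IFITM1 in KD than in WT. IFIT1 and IFITM1 had the largest fitted changes of their families. This direction therefore follows from the changes given above and is not a separate result. IFIT2 relative to IFIT1 went from 1.24 ± 0.82 in WT to −0.18 ± 0.10 in KD (SD, n = 3 each), a difference of −1.41. The ratio of IFIT3 to IFIT1 went from 1.99 ± 0.24 to 1.02 ± 0.16, a difference of −0.96, and that of IFIT5 to IFIT1 from 0.97 ± 0.86 to −1.80 ± 0.15, a difference of −2.77. In the other family, IFITM3 to IFITM1 went from 4.54 ± 0.27 to 1.74 ± 0.24 (−2.81), and IFITM2 to IFITM1 from −2.49 ± 0.88 to −8.64 ± 2.09 (−6.14). None of the 5 ratios overlapped between the conditions, and how often ratios of other genes do so was not tested. Each had an exact permutation p of 0.1 (two-sided, 0.1 after adjustment over the 5 ratios), the smallest that 3 libraries against 3 allow, so none passed 0.05. The ratio of IFITM2 to IFITM1 rests on 3.5 counts of IFITM2 in KD replicate 1.

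Of the relatives of these families, IFITM10 alone had enough counts for the test, at 24.5 ± 10.2 CPM in WT and 31.5 ± 5.46 in KD (SD, n = 3 each; log2 fold change 0.36, SE 0.31, adjusted p = 0.689). IFIT1B had 22 counts in WT replicate 2 and none elsewhere. IFITM5, which is made by bone-forming cells, had 1 count in WT replicate 1. The pseudogenes IFIT1P1 and IFIT6P had at most 21 counts in any library, and IFITM4P, IFITM8P and IFITM9P were at 0 in all 6.

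Genes next to the 3 loci were looked at to see whether the change was shared by the surrounding region. None of the 6 tested IFIT neighbours, 15 tested IFITM neighbours or 9 tested BST2 neighbours on a list of nearby genes was called in either direction. Across all tested genes 1.75% were called higher and 0.839% lower, so a lack of calls among so few genes does not decide the question. Every KD library lay above every WT library in 1, 3 and 1 of these neighbours, and below in 0 of them. All KD libraries lay above all WT libraries in 11.8% of all tested genes. Their median log2 fold changes were 0.22, 0.23 and 0.00. With the replicate block, STAMBPL1, 308.5 kb from the IFIT genes and not on the list, was called higher (log2 fold change 0.88 and adjusted p = 0.0868 without the block, 0.0252 with it). Its KD libraries all lay above its WT libraries, as did those of HTR7 and of SIRT3 near the IFITM genes. Of the listed genes, HTR7 (log2 fold change 1.43 and adjusted p = 0.0914 without the block), 1319 kb from the IFIT genes, and BET1L near the IFITM genes were called higher with the block, and KIF20B was called lower. LIPA, a lysosomal lipase gene on the opposite strand that overlaps IFIT1, IFIT2 and IFIT3 in the annotation, went from 41.9 ± 12.1 to 57.6 ± 10.5 CPM (log2 fold change 0.46, SE 0.25, adjusted p = 0.462). The libraries were directional, and the strand setting of the counting is not given in the sources used here. LIPA averaged 1211 counts in WT and 1812 in KD, and its part in the IFIT counts was not tested. CH25H, next on that side, was at 0 in every library. On the other side, SLC16A12 was near 0 and PANK1 was not called (log2 fold change −0.54, SE 0.78).

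At the IFITM locus, ATHL1 lay 7.55 kb to the left with a log2 fold change of 0.41 (SE 0.53, adjusted p = 0.819), and B4GALNT4 lay 40 kb to the right with 0.55 (SE 1.10, adjusted p = 0.89). IFITM5 and PKP3 had too few counts for the test. MVB12A, a gene of the endosomal sorting machinery that starts 0.092 kb from BST2 on the other strand, had 96.2 ± 9.53 CPM in WT and 96.1 ± 8.82 in KD. Its log2 fold change was −0.00 (SE 0.18, adjusted p = 0.998), beside 2.07 (SE 0.24) for BST2. CTD-2521M24.5 and PLVAP on one side and TMEM221 beyond MVB12A were under 1 CPM in every library.

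**Figure D4:**
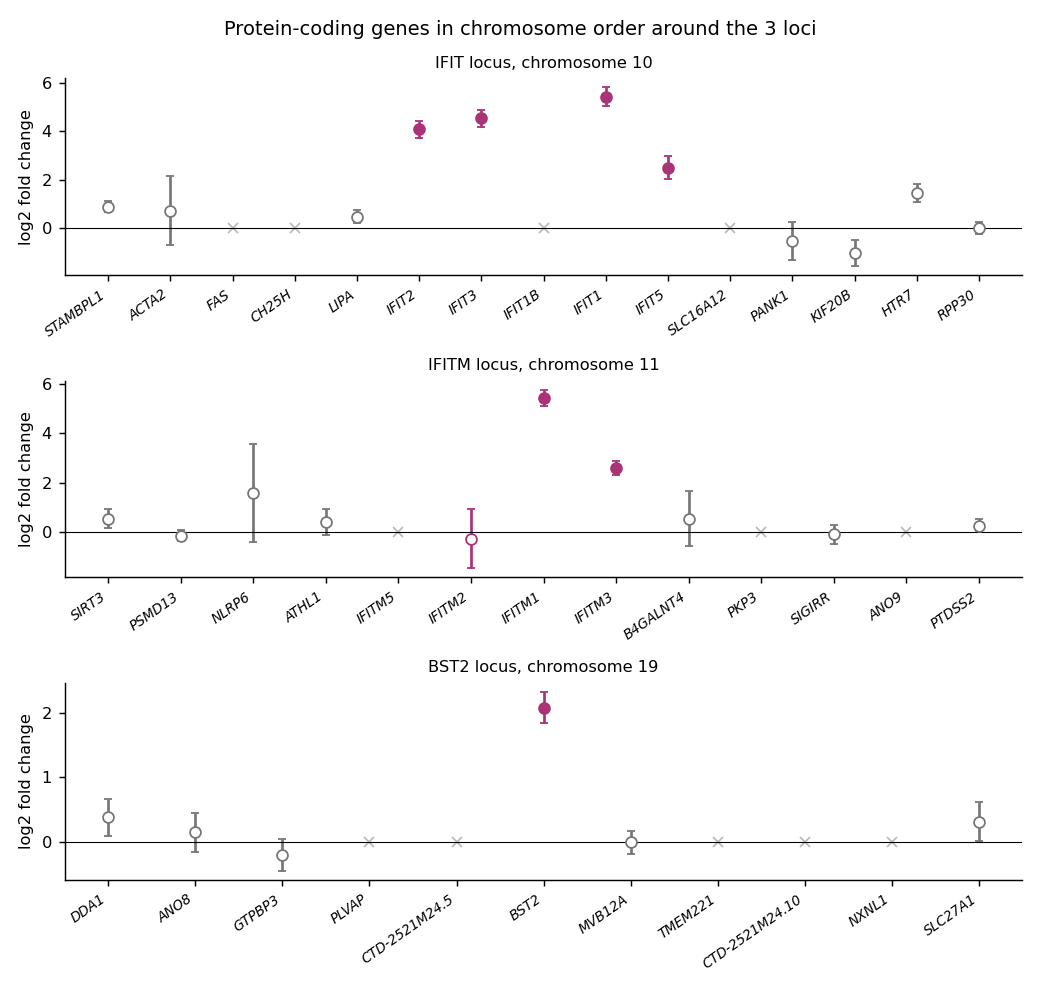
Log2 fold change, KD against WT, with bars of ± 1 SE, for protein-coding genes in chromosome order around each locus, evenly spaced and not to distance; purple marks the 8 genes, filled points passed an adjusted p of 0.05, open points did not, and crosses at 0 are genes with too few counts for the test. The filled points are IFIT1, IFIT2, IFIT3, IFIT5, IFITM1, IFITM3 and BST2.

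The promoters of these genes were then set beside those of all genes. Each of the 7 windows, from 250 bases before the start to 50 after it, held at least 2 ISRE matches. Of 35116 windows in the RefSeq table, 3.57% held at least 1, 0.259% at least 2 and 0.037% at least 3. GAS letters occurred in 7.66% of all windows. Among tested genes with a window, ISRE letters were found in 50 of the 200 genes called higher in KD (25%), in 1.04% of the 96 called lower and in 3.67% of the 9845 that were not called. Read the other way, 12.1% of the 412 tested genes with ISRE letters were called higher in KD. Letters in a window are a description and do not show that a factor binds there.

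**Figure D5:**
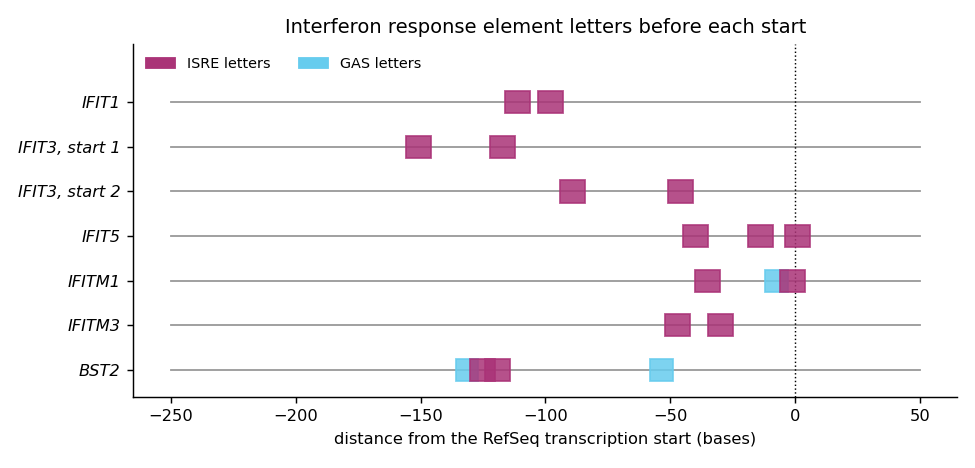
Positions of ISRE letters and GAS letters, in bases from the RefSeq transcription start (dotted line), in the 7 promoter windows of 6 of the genes, with matches on either strand drawn on the line of the window. Every window holds at least 2 ISRE matches, and those of IFIT5 and IFITM1 reach the start.

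Genes of interferon signalling were not uniformly higher. USP18, which dampens the receptor, went from 6.14 ± 1.80 to 130 ± 21.3 CPM (log2 fold change 4.397, adjusted p = 5.21e-05) and IRF7, a transcription factor that induces interferon genes, from 18.0 ± 3.39 to 197 ± 22.1 CPM (3.44, adjusted p = 5.21e-05). IRF9 was also called higher (log2 fold change 2.66, adjusted p = 6.49e-05). IFNAR1 (log2 fold change 0.04, SE 0.26) and IFNAR2 (0.43, SE 0.27), the chains of the receptor, were not called. Nor were its kinases JAK1 (−0.10, SE 0.18) and TYK2 (−0.22, SE 0.20).

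Of 39 other antiviral effector genes tested, 33 were called higher in KD and none lower, with a median log2 fold change of 3.00. The shares over all tested genes were 1.75% called higher and 0.839% called lower. RSAD2, whose product viperin makes a chain-terminating nucleotide, was under the 3-count floor in WT and at 40.3, 21.3 and 47.6 CPM in KD. IFI27 went from at most 0.493 CPM in WT to 94.3 to 316 CPM in KD, and IFI44L from at most 0.754 to 40.5 to 94.1 CPM. With the block the counts of this list were 35 higher and 1 lower, the latter being APOBEC3G (log2 fold change −1.61 and adjusted p = 0.316 without the block). The block test called 5.1% of all tested genes higher and 4.42% lower.

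Genes for proteins that work with or act on the IFIT, IFITM and BST2 proteins were compared as a list of 18 tested genes. Among them, CMTR1 was called higher in KD and none was called lower, and their median log2 fold change was −0.07. Over all tested genes 1.75% were called higher and 0.839% lower, so few calls in a short list do not decide whether it responded. Every KD library lay above every WT library in 3 of the 18, and in 11.8% of all tested genes. CMTR1 adds the ribose methylation whose absence IFIT1 reads, and it went from 70.6, 104 and 85.7 CPM in WT to 167, 180 and 209 CPM in KD (log2 fold change 1.09, SE 0.21, adjusted p = 0.0267). Its call was lost, with adjusted p up to 0.163, without any 1 library but WT replicate 1. CMTR2, which methylates the next ribose, had a log2 fold change of 0.24 (SE 0.49, adjusted p = 0.895). Neither ZDHHC20, which palmitoylates IFITM3 (−0.64, SE 0.55), nor NEDD4, its ubiquitin ligase (−0.12, SE 0.31), nor ZMPSTE24, its cofactor (−0.22, SE 0.31), was called.

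Other factors of virus entry and release were compared as a list of 11 tested genes, of which 4 were called higher and none lower. The shares over all tested genes were 1.75% and 0.839%. NPC1, the endosomal cholesterol transporter that filoviruses use as a receptor, went from 160 ± 20.7 to 553 ± 83.4 CPM (log2 fold change 1.79, SE 0.21, adjusted p = 0.00183). GBP2, a guanylate-binding protein, changed by 1.54 (SE 0.26, adjusted p = 0.015) and LY6E, a surface protein that hinders coronavirus fusion, by 1.28 (SE 0.20, adjusted p = 0.0108). The GBP2 call was lost without WT replicate 3, KD replicate 1 or KD replicate 3, and that of LY6E without WT replicate 2 or KD replicate 3. CTSL, an endosomal protease, was the other (log2 fold change 1.03, adjusted p = 0.0335), and its call was lost, with adjusted p up to 0.18, without any 1 library but WT replicate 1. With the block 6 genes of this list were called higher, CTSB and SERINC5 being added, as were 5.1% of all tested genes.

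Of 10 reference genes taken as constitutive, B2M, the light chain of MHC class I, was called higher (308 ± 25.7 to 1377 ± 346 CPM, log2 fold change 2.16, adjusted p = 0.00132), and the list's median log2 fold change was −0.11. Of 10 melanocyte lineage markers, S100B was called lower (log2 fold change −1.36, adjusted p = 0.00949), and 6 were called lower with the block. Over all tested genes 1.75% were called higher and 0.839% lower without the block, and 4.42% were called lower with it. The S100B call was lost, with adjusted p up to 0.0865, without KD replicate 2 or KD replicate 3. No tested fibroblast or epithelial marker was called without the block, and with it 1 fibroblast marker (COL1A1) and 2 reference genes (RPLP0 and TFRC) were called lower. Summed fibroblast markers ran from 8.20 to 102.8 CPM in WT and from 5.85 to 29.3 CPM in KD, and epithelial markers from 153 to 461 and from 171 to 306 CPM.

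Across the 6 libraries, the tested genes outside these families whose log2 CPM followed each gene most closely are given as a description, since all share the contrast between conditions and the same 6 libraries. IFIT1 was most like DDX58 (Pearson r = 0.998), which encodes the RNA sensor RIG-I, and PLEKHA4 (0.997). IFITM1 was most like ISG15 (0.999) and IFI27 (0.999). For IFIT2 the closest were IFI35 (0.999) and SPRYD7 (0.998), for IFIT3 HCP5 and PDCD1LG2 (0.997 each), and for IFIT5 HIVEP2 (0.999) and PARP9 (0.996). BST2 and IFITM3 shared FLT3LG as the closest gene (0.998 and 0.997), followed by KLC2 for BST2 and DHRS7B for IFITM3. For IFITM2, at its low counts, the closest were RP4-612B15.3 (0.993) and DLL1 (0.985). FLT3LG (log2 fold change 0.92, adjusted p = 0.143), DHRS7B, SPRYD7, HIVEP2 and PDCD1LG2 did not pass the test, so a close likeness over 6 libraries was also found for genes that were not called.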

How the data were processed

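Poly(A) RNA was made into directional libraries and sequenced. The authors mapped reads to hg19 and deposited expected counts per gene, not scaled between libraries. STAR and RSEM are the tools in the submitters' processing notes, and the annotation is not given in the sources used here. RSEM divides reads that match several genes, so some deposited expected counts are not whole. They were rounded. Totals per library were 24895998 to 35181733.

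KD was compared with WT in R 4.3.3 with edgeR 4.0.16 (filterByExpr, TMM, quasi-likelihood test, no block since the methods name no pairing), with Benjamini-Hochberg adjustment over 15605 genes and a threshold of 0.05. SE is the log2 fold change divided by the square root of F. Ratios within families used counts plus 0.5. Alternatives were a replicate block, DESeq2 1.42.0, upper-quartile normalization, limma-voom (limma 3.58.1), no filter, at least 10 counts in every library, an adjusted p under 0.01, 5 counts added in ratios and leaving out libraries. The test was tried on simulated data.

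Replicate numbers are shared between conditions. Over 12722 genes with at least 10 counts in every library, deviations of same-numbered libraries from their condition means correlated at 0.474, 0.292 and 0.257, and those of different numbers at −0.350 to 0.170. Over all 15605 tested genes the same-number values were 0.202, 0.0904 and 0.0718, of which 2 are under 0.1. On the well-counted genes each library correlated most with the same-numbered library of the other condition, most strongly for replicate 1. Replicates 2 and 3 also correlated across numbers, at 0.170 and 0.136. The source of any pairing is not in the labels. Reported values are from the test without the block unless the block is named.

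The genes, lists and tests were chosen with earlier results of these data known. Named genes are the 8 genes and their relatives, STAG2, the 3 called genes of largest change in each list, the nearest 2 genes on each side of a locus, and the 2 genes most like each member. Other genes were named after their values were seen. Levels per kb, positions and shared 50-base stretches used GENCODE v44lift37, in which 55539 of the 57820 gene IDs matched. Of the listed symbols, 8 were not in the table under that name and are not analysed here. A result of the interferon signalling list is not reported here.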

Additional observations from a re-analysis of the deposited data

How the results depend on the processing

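The count of genes called among the 8 ranged from 6 to 7 over all alternatives, and IFIT5 was the gene that dropped out. It was 6 without any 1 library other than WT replicate 1 and at an adjusted p under 0.01, and 7 under the others. Across all tested genes, 404 were called. The count was 1486 with the replicate block (796 higher, 690 lower), 979 with DESeq2, 1103 with no filter on low counts, 137 at an adjusted p under 0.01, 121 to 531 with 1 library left out, and 757 without replicate 1 of both conditions, the alternative added after the data had been seen. The replicate block changed no call among the 8 genes, STAG2 and the family sums, where it gave log2 fold changes of 2.94 for IFITM1 to IFITM3 and 4.26 for IFIT1 to IFIT5. The 2 sums stayed called under every alternative, with lowest and highest values of 2.66 and 3.09, and of 3.99 and 4.55, when 1 library was left out. STAG2 ranged from −2.63 to −1.68 in those fits and lost its call without WT replicate 2, WT replicate 3, KD replicate 2 or KD replicate 3. The log2 fold change of IFITM2 turned to 0.07 without WT replicate 2, 0.25 without KD replicate 1 and 0.33 without replicate 1 of both conditions, with a range of −0.782 to 0.254 over single libraries left out, and it was never called. IFITM2 could not be fitted under the filter of at least 10 counts in every library, which left 7 of the genes. All 5 ratios within families kept their sign, which restates the larger changes of IFIT1 and IFITM1. IFITM2 had 3.5 to 45.6 counts per library. The causes of these differences were not tested.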
